A study of Homo sapiens with 4 samples.

Results

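The entries described here are whole-locus entries: rows of the 2 deposited expression tables that carry a gene's own identifier in place of a transcript's, for genes that also have transcript entries. They were found by that rule alone, without use of any expression value. Each table held 212874 entries, of which 168036 were transcripts and 33646 met the rule. Leaving out 216 entries whose estimate had failed in either table gave 33430 whole-locus entries, or 15.7% of all entries. No source used here says how these entries were made. In the tables' hg19 coordinates 13958 of them had a locus string that no other gene used. Of the 13269 of these that could be matched by identifier to GENCODE 29, 85.4% had an annotated gene length within 5% of the locus length. Other loci were merged stretches shared by up to 159 genes, so the locus length ran from 0.152 to 7312 kb with a median of 42.1 kb.

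The study sequenced RNA from HT29, an established human colon adenocarcinoma line, to look for mRNA targets of miR-23b, and each of its 4 groups was 1 library. The precursor group received a miR-23b precursor (a synthetic RNA that raises the microRNA) and is labelled as high in miR-23b. The antimir group received an antimir (an oligonucleotide that binds the microRNA) and is labelled as low in miR-23b. The precursor control and the antimir control received the respective control. All 4 groups shared the remaining treatment: cells of passages 12 and 13, at 90% confluency in McCoy medium with 5% serum, were transfected at 50 nM (the labels give 50nm) by Lipofectamine 2000, the medium was renewed at 24 h and RNA was taken at 48 h. The libraries were made from whole cultures, in which fewer cells of a type and less RNA per cell cannot be told apart. Values are FPKM, fragments scaled to the length of the entry and to the library, and the depth of each library is unknown. With 1 library a group there is no replicate error, so every difference below compares 2 libraries and carries no test.

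Most human genes are copied into a pre-mRNA that spans exons and introns, and introns are removed as the RNA is made or soon after. Fragments that lie within introns come mainly from pre-mRNA and from transcripts that keep an intron in the nucleus, and the level of intronic fragments is often used beside that of the spliced mRNA to follow RNA synthesis and processing. A microRNA pairs through its seed with mature mRNAs, mostly in the cytoplasm, where it lowers their stability and translation. Whether a whole-locus entry collects intronic fragments, fragments of unannotated exons or both was not stated.

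The microRNA that was raised or blocked is shown with its seed, bases 2 to 8, in capitals. It is the RefSeq sequence of miR-23b-3p, encoded at chr9:95085265-95085287 on the plus strand of GRCh38.p14, inside the gene that the tables call C9orf3.
hsa-miR-23b-3p: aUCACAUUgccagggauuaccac

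The promoters of 3 interferon-induced genes are shown because their whole-locus entries were among the 8 highest named differences of the antimir comparison. They are RefSeq sequences of GRCh38.p14, from 250 bases before to 50 bases after a transcription start, written along the gene's strand: chr1:78620198-78620497 (plus) for IFI44L, chr1:78649539-78649838 (plus, the first of its listed starts) for IFI44 and chr1:27672143-27672442 (minus) for IFI6. Capitals mark each match to GAAANNGAAA on either strand, the core of the element through which interferon signalling acts on transcription.
IFI44L: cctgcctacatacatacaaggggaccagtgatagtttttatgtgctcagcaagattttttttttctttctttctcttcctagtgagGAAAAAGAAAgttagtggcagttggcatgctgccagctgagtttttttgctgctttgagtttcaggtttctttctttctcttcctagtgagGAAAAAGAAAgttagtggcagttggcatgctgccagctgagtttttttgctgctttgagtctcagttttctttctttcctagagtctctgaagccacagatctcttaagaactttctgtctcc
IFI44: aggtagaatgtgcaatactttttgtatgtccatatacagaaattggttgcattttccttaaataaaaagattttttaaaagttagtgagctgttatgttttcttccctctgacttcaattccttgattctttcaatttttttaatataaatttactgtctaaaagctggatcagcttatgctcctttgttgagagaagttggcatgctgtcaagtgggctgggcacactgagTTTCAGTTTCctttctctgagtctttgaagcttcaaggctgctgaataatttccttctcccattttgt
IFI6: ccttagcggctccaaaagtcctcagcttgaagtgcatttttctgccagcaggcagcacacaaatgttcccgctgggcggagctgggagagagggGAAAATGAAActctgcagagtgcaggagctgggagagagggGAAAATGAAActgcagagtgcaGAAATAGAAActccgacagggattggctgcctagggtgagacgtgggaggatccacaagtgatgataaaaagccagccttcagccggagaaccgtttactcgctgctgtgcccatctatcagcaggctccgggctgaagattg
IFI44L held 2 matches, IFI44 held 1 and IFI6 held 3. Of 27305 genes in the promoter table, 4.38% had the motif in at least 1 listed promoter, and the share was 4.04% among the 13305 whose symbol belonged to a whole-locus entry. Of the 27 interferon-induced genes measured through a whole-locus entry in the antimir comparison, 20 were in the table and 13 of these (65.0%) had it. These genes were listed because they are known to be interferon-induced, and the 27 passed the FPKM minimum on the antimir libraries themselves. Their share is therefore a trait of the list and no result of these data. A match is a description of the letters, not of a bound factor.

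Whole-locus entries were low. They took 0.565% of all FPKM with the precursor, 0.583% in its control, 0.653% with the antimir and 0.617% in its control. The median entry was at 0.0137, 0.0165, 0.00872 and 0.00743 FPKM in the same order, and 5360 entries were listed at 0 in all 4 libraries. An FPKM of at least 0.5 was reached by 2803 entries with the precursor, 3390 in its control, 3084 with the antimir and 2977 in its control. The precursor library thus had the fewest such entries and its own control the most. The 2 tables had been normalised separately, so levels are set side by side across them only as deposited.

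Set against the summed transcripts of the same gene, the whole-locus entry was a small part. Over 8852 protein-coding genes with more than 1 exon block (exons of the GENCODE 29 annotation, merged where they overlap) and a mean transcript FPKM of at least 5, the median share of the gene's FPKM held by its whole-locus entry was 0.433% with the precursor, 0.569% in its control, 0.716% with the antimir and 0.666% in its control. The quartiles were wide, at 0.170% and 1.09% with the precursor. FPKM divides by length, and a whole locus is long. Each entry can be taken to be as long as its annotated gene, an assumption no source states. This was done for all 17635 protein-coding genes with more than 1 exon block, without the transcript minimum. Their whole-locus FPKM then corresponds to 10.3% of fragments with the precursor, 13.3% in its control, 11.7% with the antimir and 11.4% in its control. The precursor library was the lowest of the 4 on this measure and its own control the highest, while the antimir library lay between them, close to its control.

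For each comparison 2 measures are used. The difference is log2(FPKM + 0.1) of the treated library minus that of its control, for entries with a mean FPKM of at least 0.5, and it understates the change of low entries. The ratio is the log2 ratio of the FPKM itself, with no added value, for entries above 0 in both libraries with a mean FPKM of at least 0.05, and it was chosen after seeing how low most entries are. Both are centred on the median difference of summed transcripts, taken over genes with a mean transcript FPKM of at least 1. A value of 0 thus means the same shift as a typical transcript sum. Transcript medians near 0 over many genes follow from the centring.

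In the precursor library, the whole-locus entries of most genes were lower, relative to the control, than a typical transcript sum was. Of 3108 entries, 2578 (82.9%) lay below 0, with a median difference of -0.26 and quartiles of -0.39 and -0.080. The summed transcripts of the same genes had a median of -0.00027, near 0 by the centring. Without centring the whole-locus median was -0.23, and the transcript median removed was 0.024. Per gene, the whole-locus difference minus the transcript difference had a median of -0.27 over 2664 genes where both had a mean of at least 0.5 FPKM, and it was below 0 in 2153 of them (80.8%). Past 1.5-fold, 33 whole-locus entries (1.06%) were higher and 170 (5.47%) lower. Over all entries of that table, transcripts included, 10.6% were past 1.5-fold higher and 12.9% lower. Whole-locus entries were thus past 1.5-fold less often than entries at large, in both directions. Most of them lay below 0 by less than 1.5-fold.

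By the ratio, the step covered more genes. Of 12789 whole-locus entries, 11101 (86.8%) lay below 0 with a median of -0.35, which is 0.785 of the control level. Among protein-coding genes it was 8483 of 9180 (92.4%) with a median of -0.38, against a median of 0.00071 for the summed transcripts of 9017 of them. Of the summed transcripts 49.9% lay below 0, which, like their median near 0, follows largely from the centring. Past 1.5-fold by the ratio, 2.12% of all whole-locus entries were higher and 15.6% lower.

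**Figure D1:**
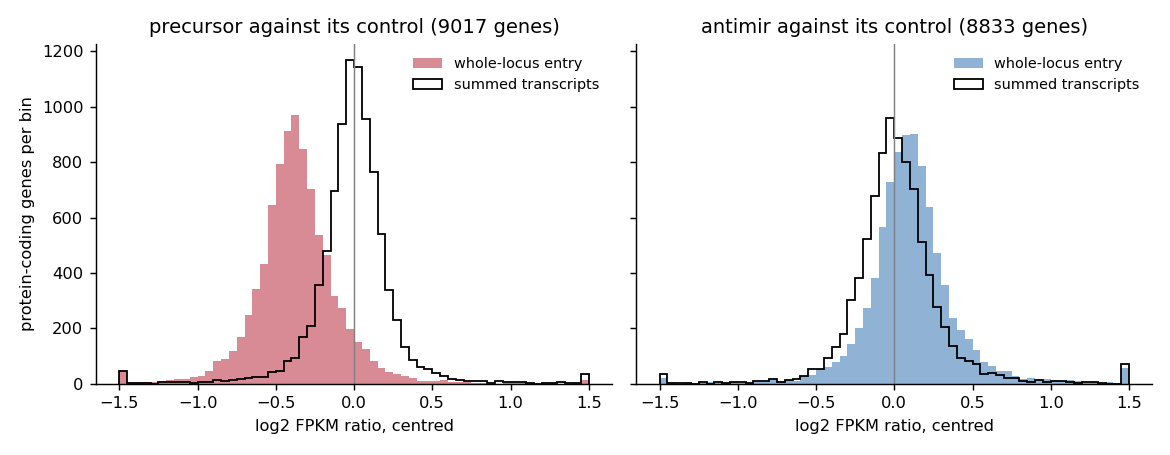
Protein-coding genes by the log2 FPKM ratio of treated library to control, centred on the typical transcript sum (horizontal axis). Values past 1.5 either way are put in the outer bins, and the vertical axis is the number of genes per bin. Filled bars are whole-locus entries and the black outline the summed transcripts of the same genes; the whole-locus bars peak left of 0 in the precursor comparison (9017 genes) and a little right of 0 in the antimir comparison (8833 genes).

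In the antimir library the shift had the opposite sign and was smaller. Of 3022 entries, 2020 (66.8%) lay above 0, with a median difference of 0.073 and quartiles of -0.041 and 0.19. Without centring, 1746 (57.8%) lay above 0 and the median was 0.029. The summed transcripts of the same genes had a median of -0.0023, near 0 by the centring. The whole-locus difference minus the transcript difference had a median of 0.083 over 2565 genes. Past 1.5-fold, 91 entries were higher and 60 lower, against 17.2% higher and 16.4% lower over all entries of that table. By the ratio, 7843 of 11978 whole-locus entries (65.5%) lay above 0 with a median of 0.087, and 6.26% were past 1.5-fold higher and 3.39% lower. The 2 comparisons share no library. Across genes within a comparison, the whole-locus difference hardly followed that of the transcripts, with Spearman's rho of 0.062 over 2664 genes in the precursor comparison and 0.038 over 2565 in the antimir comparison. Both values of a gene come from the same 2 libraries, and genes are not independent replicates.

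In the authors' deposited table of the precursor comparison, 5977 whole-locus entries were tested, of which 36 were called higher and 1805 lower (30.2%). Of all tested entries there, 6.3% were called higher and 8.15% lower. Transcript entries were called about evenly, with 5333 higher and 5133 lower of 77495. Among 4136 tested whole-locus entries of protein-coding genes, the authors' deposited table called 10 higher and 1589 lower (38.4%). In the authors' deposited table of the antimir comparison, 6 of 4694 whole-locus entries were called higher and 1 lower, where 0.228% of all tested entries were called higher and 0.157% lower. These calls compare 2 libraries and not 2 conditions.

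Those 7 entries of the antimir comparison are all given here. The 6 called higher belonged to IFI44, IFI44L, HERC6, XAF1, ACO1 and a clone-named gene with no match in the annotation, and the 1 called lower to a clone-named lincRNA gene. IFI44, IFI44L, HERC6 and XAF1 are interferon-induced. The whole-locus entry of ACO1, a cytosolic aconitase that also acts in iron regulation, was at 0.482 FPKM with the antimir and 0.199 in its control, and at 0.131 with the precursor and 0.179 in its control. Its summed transcripts went the other way in the antimir comparison, at 9.79 against 13.5 FPKM. The lincRNA gene was at 1.94 against 3.45 FPKM in the antimir comparison and at 3.25 against 3.05 in the precursor comparison. Apart from IFI44 and IFI44L, the 7 are named here because of those calls.

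Gene length was related to the precursor step mainly at the short end. By the ratio, protein-coding genes under 2 kb had a median of -0.12, with 62 of 100 entries below 0. At 2 to 10 kb the median was -0.32 over 1734 entries and at 10 to 30 kb it was -0.38 over 3096. At 30 to 100 kb it was -0.39 over 3173 entries, of which 96.7% lay below 0, and at 100 to 300 kb -0.38 over 998, of which 965 lay below 0. Above 300 kb it was -0.32 over 79 entries. From 10 to 300 kb the medians thus differed by little, and the summed transcripts, centred over all lengths together, stayed near 0 in every length class. In the antimir comparison the medians ran from 0.14 under 2 kb (85 entries) to 0.070 above 300 kb (58 entries).

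By the locus column itself, which lumps neighbouring genes, the precursor medians of the difference were -0.072 under 2 kb (161 entries), -0.29 at 2 to 10 kb (582), -0.29 at 10 to 30 kb (865), -0.25 at 30 to 100 kb (902), -0.19 at 100 to 300 kb (457) and -0.19 above 300 kb (141). Long locus strings were mostly shared by several genes. Among entries with a locus string of their own, the median was -0.34 at 10 to 30 kb, -0.37 at 30 to 100 kb and -0.11 at 100 to 300 kb, the last over 2 entries. In the antimir comparison the medians were -0.0086 under 2 kb (105 entries) and between 0.050 and 0.11 in the longer classes.

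**Figure D2:**
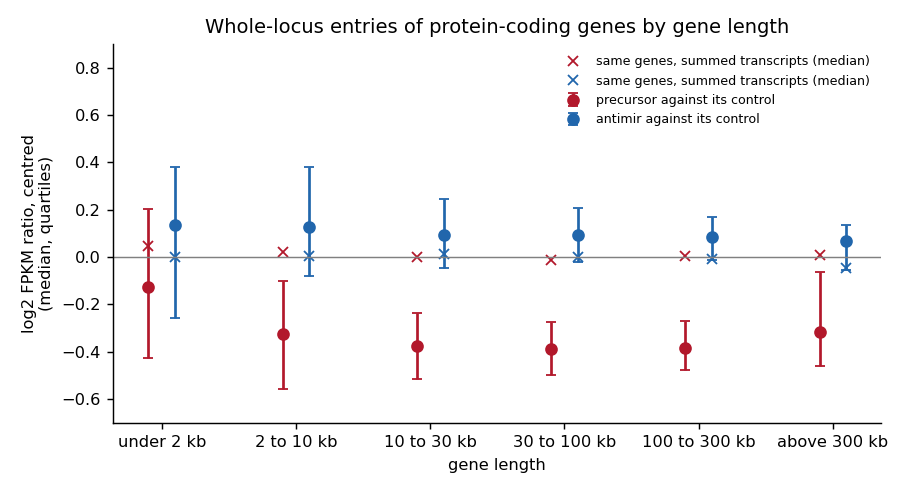
Medians (points) and quartiles (bars) of the centred log2 FPKM ratio of whole-locus entries of protein-coding genes, by annotated gene length; crosses are the medians of the summed transcripts of the same genes. Precursor points lie below 0 in every class, from -0.12 under 2 kb to -0.39 at 30 to 100 kb, and antimir points lie above 0.

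The size of the step differed by type of gene, and between coding genes of 1 exon block and those of more. In the precursor comparison the median difference was -0.31 over 1834 protein-coding genes, of which 1715 lay below 0, and -0.23 over 131 lincRNA genes. It was -0.073 over 583 antisense genes and -0.0068 (0.017 without centring) over 126 processed pseudogenes, which are intronless copies of mRNAs. Protein-coding genes of 1 exon block, which have no intron, had a median of -0.065 over 37 entries. With 2 exon blocks it was -0.29 (84 entries), with 3 to 5 it was -0.28 (479), with 6 to 10 -0.32 (698) and with over 10 it was -0.33 (536). Coding genes with introns over more than 95% of their length were near 0 as well, at -0.083 over 36 entries with quartiles of -0.32 and 0.040. Those with introns over 90 to 95% were at -0.27 over 143 entries. By the ratio, with its lower minimum, coding genes of 100 to 300 kb were at -0.38 over 998 entries. A part of introns in the step was not tested. In the antimir comparison protein-coding genes had a median of 0.089 over 1918 entries and antisense genes 0.028 (-0.015 without centring) over 588, while coding genes of 1 exon block were at 0.14 over 32 entries and so were not nearest 0 there. Because the strand of the libraries was not given in the sources used here, fragments of an antisense gene and of its partner cannot be told apart, and fragments of a pseudogene can come from its parent gene.

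**Figure D3:**
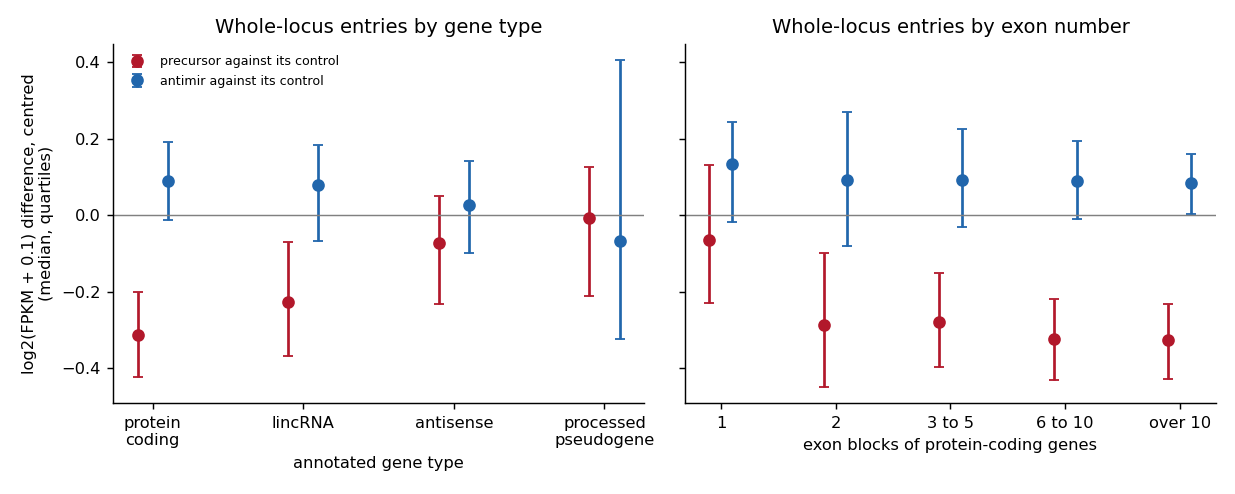
Medians (points) and quartiles (bars) of the centred log2(FPKM + 0.1) difference of whole-locus entries, by annotated gene type (left) and by the number of exon blocks of protein-coding genes (right). In the precursor comparison the median moves from -0.31 in protein-coding genes to -0.0068 in processed pseudogenes. It is -0.065 at 1 exon block and between -0.28 and -0.33 in every class of 2 or more.

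The step was present along the whole genome. On each of 23 chromosomes, with 11 to 199 protein-coding entries each, the median precursor difference was below 0, from -0.36 on chromosome 3 to -0.25 on chromosome 22. The median antimir difference was above 0 on each of the 23, from 0.054 on chromosome 22 to 0.14 on chromosome 6. It also differed by level. In protein-coding genes the precursor median was -0.32 at a mean of 0.5 to 1 FPKM (1095 entries), -0.30 at 2 to 5 FPKM (190), -0.24 at 5 to 10 FPKM (32) and -0.065 at 10 FPKM or more (21). The most abundant entries were thus the least shifted.

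The make-up of the libraries differed as well. The 12 measured genes of the mitochondrial genome that encode proteins, transcribed outside the nucleus and without introns, took 2.07% of all FPKM with the precursor against 1.60% in its control, and 2.19% with the antimir against 2.60% in its control. The mitochondrial share was thus higher where whole-locus entries were lower, and lower where they were higher. Its part in the whole-locus differences was not tested.

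Interferon-induced genes, which encode antiviral effectors and sensors, were measured in 34 whole-locus entries, and a low entry can pass the FPKM minimum only through the library where it is high. They were therefore chosen on the other table, at a mean of at least 0.05 FPKM in its 2 libraries, a choice made after seeing the data. Chosen on the precursor table, 21 of 21 lay above 0 in the antimir comparison and 18 of them were past 1.5-fold higher, with a median ratio of 1.09, while 65.3% of all whole-locus entries chosen in the same way lay above 0 and 6.59% were past 1.5-fold higher. Chosen on the antimir table, 24 of 27 lay below 0 in the precursor comparison, close to the 87.8% of all entries so chosen, but 13 were past 1.5-fold lower against 15.7% of all, with a median of -0.58. By the minimum of each comparison's own libraries, 27 passed in the antimir comparison at a median of 1.40, beside 1.62 for their summed transcripts, and 21 in the precursor comparison at -0.54, beside -0.20. The members above 0 in the precursor comparison were IRF7, ISG15 and OASL, which are named because they were the exceptions.

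IFI44L, an interferon-induced gene of the IFI44 family (hg19 chromosome 1, 79085607 to 79108484), was at 2.22 FPKM with the antimir, 0.274 in its control, 0.130 with the precursor and 0.355 in its control. The antimir library stood far above the other 3, and its difference from the control was 2.68. The summed transcripts of IFI44L were at 81.1, 9.64, 7.75 and 13.5 FPKM in the same order, so that both forms had the same order of libraries. Its neighbour IFI44 (chromosome 1, 79115481 to 79129763) was at 9.49 FPKM with the antimir, 2.68 in its control, 1.81 with the precursor and 2.94 in its control, a difference of 1.83 in the antimir comparison and -0.69 in the precursor comparison. These neighbours share the promoter motif shown above.

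IFI6, a mitochondrial protein that counters apoptosis, was at 2.58 FPKM with the antimir and 0.611 in its control (1.95), and at 0.432 with the precursor and 0.592 in its control (-0.40). IFI27, of the same family, was at 2.07 and 0.809 FPKM (1.30), and at 0.520 and 0.847 (-0.63). MX1, an antiviral GTPase, was at 0.798 and 0.203 FPKM (1.61), and at 0.113 and 0.185 in the precursor comparison. The MX1 locus string is shared by 159 genes, and MX1 reached the minimum of the difference only through the antimir library. In each of the 3 the antimir library was the highest and the precursor library the lowest. BST2, a membrane protein that tethers budding viruses, was at 1.24 FPKM against 0.602 in the antimir comparison and at 0.370 against 0.641 in the precursor comparison. HERC6, a ubiquitin ligase, was at 0.361 against 0.107 and at 0.0782 against 0.126 FPKM. XAF1, a proapoptotic protein, was at 0.649 against 0.116 and at 0.0738 against 0.163 FPKM. BST2, HERC6 and XAF1 had the same order, with the antimir library highest and the precursor library lowest.

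Proliferation genes were low in the precursor comparison. All 35 listed whole-locus entries of replication and mitosis genes lay below 0 by the ratio, 19 of them past 1.5-fold lower, with a median of -0.61 against -0.35 over all whole-locus entries, of which 86.8% lay below 0 and 15.6% were past 1.5-fold lower. By the difference, 5 passed the higher minimum, at a median of -0.55. Their summed transcripts were lower by less, at a median of -0.12 with 29 of 35 below 0. With the antimir, 29 of 34 whole-locus entries lay above 0 and 5 were past 1.5-fold higher, with a median of 0.32. Among all whole-locus entries 65.5% lay above 0 and 6.26% were past 1.5-fold higher there. Among those of protein-coding genes alone, 92.4% lay below 0 in the precursor comparison, at a median of -0.38. In the antimir comparison 68.5% of the protein-coding entries lay above 0.

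CCNB1, the cyclin of mitotic entry, was at 0.483 FPKM with the precursor and 0.865 in its control (-0.75), and at 0.903 with the antimir and 0.741 in its control (0.30). CDK1, the kinase that cyclin B activates, was at 0.492 against 0.714 FPKM (-0.48) and at 0.890 against 0.613 (0.52). E2F1, a transcription factor of the S phase programme, was at 0.640 against 0.988 FPKM (-0.58) and at 0.731 against 0.669 (0.16). In all 3 the precursor library was the lowest of the 4. MCM7, a subunit of the replicative helicase, was at 0.393 against 0.610 FPKM (-0.55) and at 0.628 against 0.506 (0.31). Its summed transcripts were at 233 against 264 and at 174 against 176 FPKM, so the whole-locus difference was the larger in both comparisons. The MCM7 locus string is shared by 9 genes.

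Genes of RNA-binding and splicing proteins that are known to keep introns in nuclear transcripts had all 26 measured whole-locus entries below 0 in the precursor comparison, 7 of them past 1.5-fold, at a median of -0.47. Here the transcripts were lower too, with 25 of 26 below 0 and a median of -0.25. With the antimir, 23 of 26 lay above 0, at a median of 0.16, and none was past 1.5-fold. Among all whole-locus entries 86.8% lay below 0 and 15.6% were past 1.5-fold lower with the precursor. With the antimir 65.5% of all lay above 0 and 6.26% were past 1.5-fold higher. Among protein-coding genes alone, 92.4% of whole-locus entries lay below 0 with the precursor, at a median of -0.38, and 68.5% above 0 with the antimir. HNRNPH1, a splicing regulator, was at 2.17 FPKM with the precursor and 3.47 in its control (-0.68), and at 3.60 with the antimir and 2.97 in its control (0.31). CCNL2, a cyclin found in nuclear speckles, was at 0.561 against 0.926 FPKM (-0.66) and at 0.879 against 0.835 (0.11). ARGLU1, which acts in splicing and transcription, was at 3.43 against 4.91 FPKM (-0.53) and at 5.06 against 4.19 (0.31). The precursor library was the lowest of the 4 in each of the 3. SRSF1 and SRSF7, splicing factors of the SR family, were nearer their controls in the precursor comparison, at 2.71 against 3.37 FPKM and at 1.83 against 2.23.

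Ribosomal protein genes showed the 2 kinds of entry on opposite sides of 0. In the precursor comparison 32 of 33 whole-locus entries lay below 0, 4 of them past 1.5-fold, at a median of -0.42, while 28 of 33 transcript sums lay above 0, at a median of 0.076. In the antimir comparison 26 of 33 whole-locus entries lay above 0, at a median of 0.17, while all 33 transcript sums lay below 0, at a median of -0.24. Among all whole-locus entries 86.8% lay below 0 and 15.6% were past 1.5-fold lower in the precursor comparison, and 65.5% lay above 0 in the antimir comparison. The precursor count past 1.5-fold was thus not above that background. Among protein-coding genes alone, 92.4% of whole-locus entries lay below 0 in the precursor comparison, at a median of -0.38, and 68.5% above 0 in the antimir comparison. RPL7A, of the large subunit, was at 1.25 FPKM with the precursor and 1.65 in its control, and at 2.09 with the antimir and 1.43 in its control. Its summed transcripts were at 1973 against 1747 and at 1114 against 1566 FPKM. Both pairs were thus ordered the other way in the transcripts. RPL13A followed the same pattern, at 0.721 against 0.991 and at 1.05 against 0.743 FPKM, beside 5131 against 4947 and 2540 against 3082 for its transcripts. RPL37 did not, since its whole-locus entry was lower in both comparisons, at 0.586 against 1.05 and at 0.554 against 0.748 FPKM. Many ribosomal protein genes have processed pseudogenes and host small nucleolar RNAs, with which they can share fragments, and their part in these values was not tested.

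The genes reported elsewhere as miR-23 targets gave 15 measured whole-locus entries, all below 0 in the precursor comparison at a median of -0.44, with 2 past 1.5-fold lower (13.3%). Over all whole-locus entries 86.8% lay below 0, 15.6% were past 1.5-fold lower and the median was -0.35, so the count past 1.5-fold was near that background. Over those of protein-coding genes alone, 92.4% lay below 0 at a median of -0.38. The summed transcripts of the 15 target genes had a median of -0.020 (0.0037 without centring), with 10 of 15 below 0. With the antimir, 11 of 15 whole-locus entries lay above 0 at a median of 0.035 (-0.0084 without centring), and 1 was past 1.5-fold higher. Over all whole-locus entries 65.5% lay above 0 there at a median of 0.087, and 6.26% were past 1.5-fold higher. Both counts of the targets were thus near that background. SPRY2, an inhibitor of growth factor signalling, was at 0.885 FPKM with the precursor and 1.10 in its control (-0.31), and at 1.10 with the antimir and 0.978 in its control (0.20). C9orf3, the gene around the MIR23B locus, had a low whole-locus entry, at 0.0288 and 0.0452 FPKM with the precursor and its control and 0.0386 and 0.0377 with the antimir and its control. Its summed transcripts were at 14.7, 14.8, 14.1 and 13.0 FPKM. The antimir pair of its whole-locus entry differed by little and the precursor library was the lowest.

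**Figure D4:**
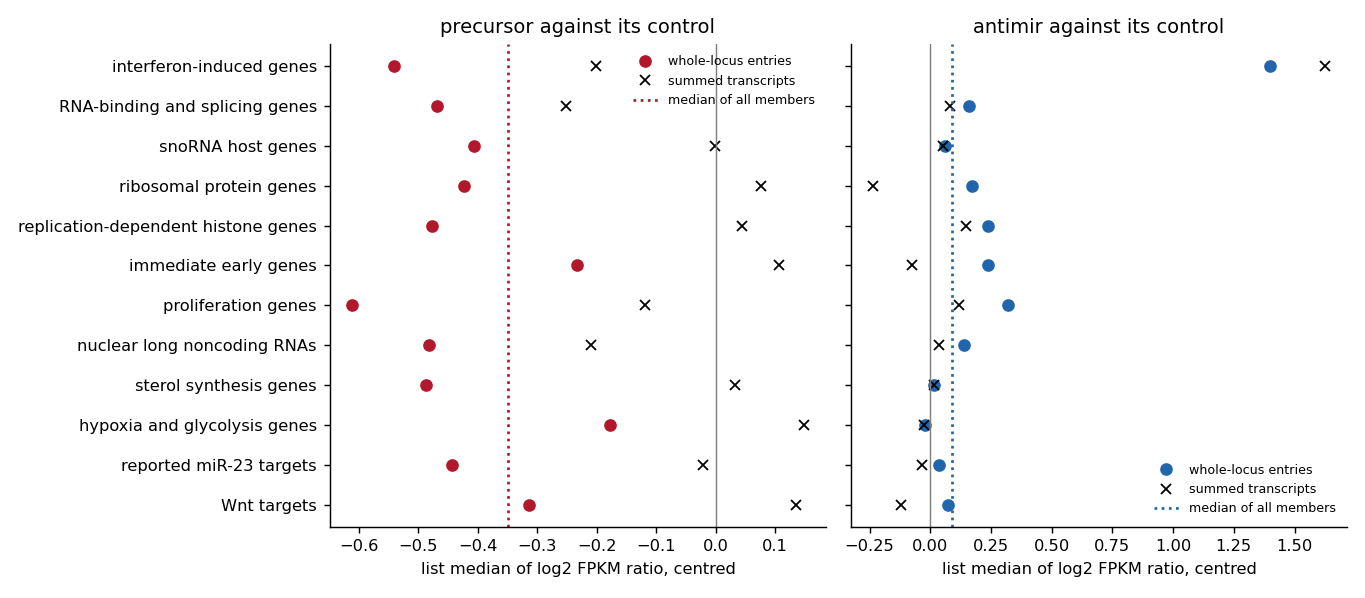
List medians of the centred log2 FPKM ratio for the whole-locus entries (points) and the summed transcripts (crosses) of the same genes, in the precursor comparison (left) and the antimir comparison (right; the horizontal axes differ); the dotted line is the median of all whole-locus entries. Each list lies below 0 at left, and the interferon-induced genes are at 1.40 at right, where members are chosen on the libraries compared.

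Sterol synthesis genes had all 18 measured whole-locus entries below 0 in the precursor comparison at a median of -0.49, while 12 of 18 transcript sums lay above 0. Among all whole-locus entries 86.8% lay below 0 there, and among those of protein-coding genes 92.4%. In the antimir comparison 9 of the 18 whole-locus entries lay above 0, against 65.5% of all. IDI1, an isomerase of the isoprenoid steps, was at 0.638 against 0.826 FPKM in the precursor comparison and at 0.706 against 0.787 in the antimir comparison. Hypoxia and glycolysis genes had 17 of 20 below 0 in the precursor comparison, at a median of -0.18 and a transcript median of 0.15. That count was near the 86.8% of all whole-locus entries and under the 92.4% of protein-coding ones. CA9, a carbonic anhydrase of hypoxic cells, was at 0.568 against 0.577 FPKM in the precursor comparison and at 0.812 against 0.670 in the antimir comparison. Wnt targets had 10 of 11 below 0, near both the 86.8% and the 92.4%, at a median of -0.31. Of their transcript sums 8 of 11 lay above 0. AXIN2, a feedback inhibitor of the pathway, was at 0.950 FPKM with the precursor against 1.02 in its control, while its transcripts were at 22.6 against 15.6.

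Immediate early genes, which serum and growth factors induce within minutes, had 13 of 15 below 0 in the precursor comparison at a median of -0.23 and 9 of 13 above 0 in the antimir comparison at 0.24. KLF6, a zinc finger factor of that group, was at 1.07 against 1.53 FPKM (-0.50) and at 1.58 against 1.26 (0.35). Host genes of small nucleolar RNAs had 15 of 17 below 0 at a median of -0.41, and 9 of 17 above 0 in the antimir comparison. Over all whole-locus entries 86.8% lay below 0 in the precursor comparison and 65.5% above 0 in the antimir comparison, so the counts of these 2 lists were near that background or, for the host genes with the antimir, under it. Over protein-coding genes alone, the shares were 92.4% and 68.5% in the same order. Replication-dependent histone genes, most of which lack introns, gave only 6 measured entries, all below 0, at a median of -0.48. Of these HIST1H2AC and HIST4H4 are annotated with 2 and 3 exon blocks, so the measured entries were not all of intronless genes. Only 1 of the list passed the higher minimum of the difference. Colon epithelial markers gave 9 measured entries, all below 0 at -0.33, with all 9 transcript sums above 0. Of the 25 genes listed for their great length, 3 had a ratio in the precursor comparison, and no mitochondrially encoded gene had a whole-locus entry by the rule.

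Among the largest single differences of the precursor comparison were pseudogenes and noncoding genes that were low in 1 library. CHCHD2P6 was at 14.2 FPKM with the precursor and 0.0072 in the control, and AK4P3 at 1.28 and 8.02e-05. AP001062.8 was at 0.130 against 1.21 FPKM, and RPS11P5 was at 20.6 with the precursor and listed at 0 in the control. Each of these 4 was low or at 0 in 1 library of the pair. In the antimir comparison HSD17B1P1, a pseudogene, was at 0.233 against 1.19 FPKM (-1.91), and HCFC1R1 at 1.23 against 0.422 (1.39).

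MALAT1, an abundant nuclear long noncoding RNA that was a single exon block in the annotation (hg19 chromosome 11, 65265233 to 65273940), was at 15.7 FPKM with the precursor, 48.2 in its control, 47.6 with the antimir and 47.5 in its control. The precursor library alone was low, at a difference of -1.63. Its summed transcripts were at 69.8, 108, 124 and 95.7 FPKM in the same order, lowest with the precursor too. The other nuclear long noncoding RNAs moved by less, with HOTAIRM1 at 5.93 against 8.15 and TUG1 at 10.6 against 12.2 FPKM in the precursor comparison. All 5 measured members of that list were below 0 by the ratio, where 86.8% of all whole-locus entries were.

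ANKRD30BL, named for its ankyrin repeats (chromosome 2, 132905164 to 133015542), had transcripts that summed to 0 once failed entries were left out. Its whole-locus entry was at 15.8 FPKM with the precursor, 68.6 in its control, 41.6 with the antimir and 45.4 in its control. Again the precursor library was the lowest. ARF6, a small GTPase of membrane traffic (chromosome 14, 50359810 to 50361490), was low in both treated libraries, at 1.54 against 3.46 FPKM (-1.14) and at 1.35 against 4.16 (-1.51). Its transcripts were at 38.1 against 34.4 and at 33.7 against 34.5 FPKM, so that they were nearer their controls than the whole-locus entry was. By the difference, C6orf120 was the highest protein-coding entry of the precursor comparison, at 4.67 against 2.37 FPKM (0.93). The precursor control was the 1 low library of the 4 for this gene, since the antimir pair was at 4.75 and 4.49. It was the only protein-coding entry past 1.5-fold higher by the difference. By the ratio, with its lower minimum, 66 of 9180 protein-coding entries were past 1.5-fold higher there.

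**Figure D5:**
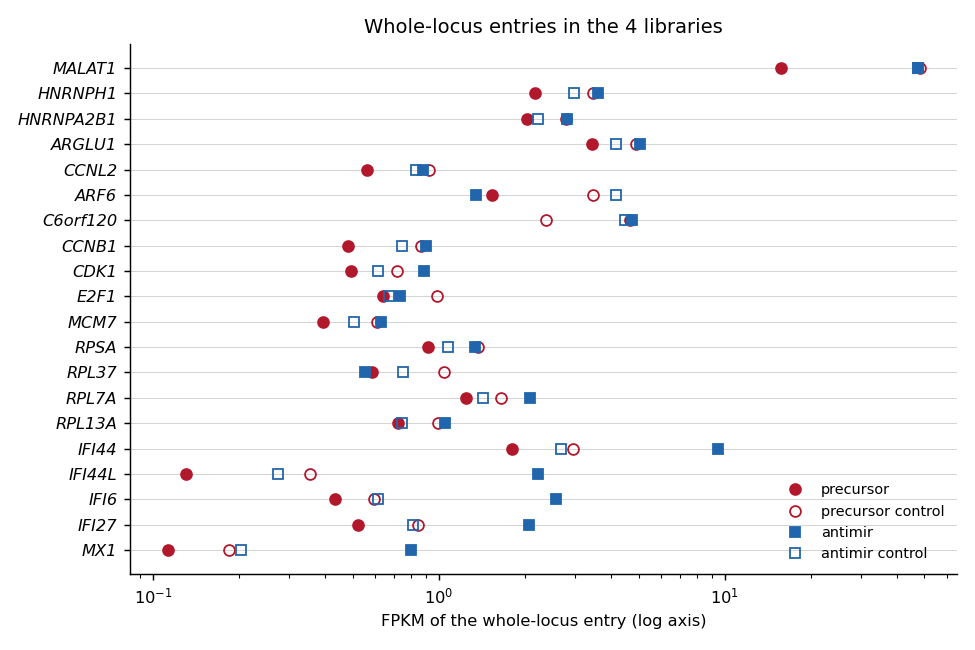
FPKM of 20 whole-locus entries (log axis) in the 4 libraries, 1 library each: filled marks are the treated libraries and open marks their controls. The precursor library is lowest or near lowest in most of the genes, as in MALAT1 at 15.7, and the antimir library is highest in the 5 interferon-induced genes at the bottom, as in IFI44 at 9.49.

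The labelled cell type was checked on summed transcripts of marker genes. Of the listed colon epithelial markers, EPCAM (531 to 743 FPKM), KRT8 (2346 to 6798) and KRT20 (136 to 180) were high in all 4 libraries. LGALS4 (331 to 391 FPKM) and VIL1 (102 to 139) were high as well. Others of that list were low, with CDX2 at 2.19 to 2.87 FPKM, CEACAM5 at 0.785 to 1.78, and CDX1 and CDH17 under 0.7. Of the markers of other cells, COL3A1 was listed at 0 in all 4, and PTPRC, CD3E, ALB and VWF stayed under 0.06 FPKM. COL1A1 was at 0.562 to 0.816 FPKM and ACTA2 at 0.528 to 0.904. CD14 was the highest of the markers of other cells, at 1.74 to 2.76 FPKM.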

How the data were processed

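RNA sequencing of 4 HT29 libraries was used as deposited. Per the submitters' processing notes, bcl2fastq 1.8.3, TopHat2 2.0.11, Cufflinks 2.2.0, Cuffdiff and the build hg19 were used, and no source used here gives their order or settings, the strand or the annotation. FPKM per entry was deposited by the authors in 2 tables normalised separately, each with a treated library as the first value and its control as the second, and with the authors' p-value, q-value and call of significance for each entry. FPKM gives no depth, so no counting interval could be had.

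Entries failed in either table were left out, also from the transcript sums. Differences used a pseudocount of 0.1 and a minimum mean of 0.5 FPKM, centred on summed transcripts (medians removed: 0.024 and -0.043), and counts used 1.5-fold. The functions were tested on simulated data. GENCODE 29, built on another assembly, gave gene type, length and exons by identifier for 31349 members (93.8%). Sequences are from RefSeq. Named genes were the 8 highest and lowest entries per comparison, the most abundant entries, up to 3 members of each list, the entries that differ most from their transcripts, and C9orf3; not all are printed, and genes named otherwise were chosen after their values were seen. Members and lists were chosen with earlier results of these data known. Python 3.11.15, pandas 2.3.3 and numpy 2.4.6 were used.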

Additional observations from a re-analysis of the deposited data

How the results depend on the processing

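No paired analysis was possible because each group has 1 library, and no result here has a replicate or a test. The unknown depth limits the low entries most.

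The precursor median of -0.26 stayed below 0 and the antimir median of 0.073 above 0 under every alternative run. The alternatives gave, as precursor median, gap to the transcripts, entries past 1.5-fold higher and lower, then the same for the antimir: with a pseudocount of 1, -0.15, -0.16, 18 and 24, then 0.055, 0.062, 27 and 14; with a pseudocount of 0.01, -0.28, -0.30 and 258 lower in the precursor comparison; with no minimum FPKM, -0.079, -0.17, 245 and 688, then 0.051, 0.056, 558 and 338; at a mean of at least 1 FPKM, -0.21, -0.24, 17 and 74, then 0.063 and 37 and 24 entries; at a mean of at least 5 FPKM, -0.018, -0.10, 6 and 8, then 0.020, 0.015, 4 and 1; with protein-coding genes alone, -0.31, -0.32, 1 and 93, then 0.089, 38 and 8; with genes that have a locus string of their own, -0.31, -0.33, 7 and 69, then 0.094, 0.098, 32 and 14. Without centring, the medians were -0.23 and 0.029. At 2-fold, 16 entries were higher and 31 lower in the precursor comparison and 25 and 25 in the antimir comparison. The ratio without a pseudocount, added after seeing the data, gave -0.35 with 271 higher and 1995 lower, and 0.087 with 750 and 406. With entries chosen on the other table it gave -0.35 with 234 and 1888, and 0.087 with 807 and 459. At 5 FPKM the precursor shift was thus close to 0.

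By length, annotated gene length moved the precursor medians to -0.25 (2 to 10 kb), -0.30 (30 to 100 kb), -0.23 (100 to 300 kb) and 0.011 (above 300 kb), the last of the opposite sign, and the antimir medians to 0.0049 (under 2 kb, also of opposite sign), 0.091 (2 to 10 kb), 0.073 (30 to 100 kb) and 0.15 (above 300 kb). Loci of a single gene gave -0.34 (10 to 30 kb), -0.37 (30 to 100 kb) and -0.11 (100 to 300 kb) for the precursor, and 0.091 (30 to 100 kb) and -0.14 (100 to 300 kb, of opposite sign) for the antimir. The cause was not tested. The share of all FPKM was 0.417%, 0.442%, 0.595% and 0.559% without the 10 most abundant entries, and 0.566%, 0.584%, 0.657% and 0.620% with failed entries kept, for precursor, its control, antimir and its control.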

Other observations

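Processed pseudogenes, intronless copies of mRNAs, were among the most abundant whole-locus entries, and they differed between the tables more than within them. At least 10 FPKM was reached by 51 of the 1328 processed pseudogene entries with the precursor and 52 in its control, but by 7 with the antimir and 6 in its control. For protein-coding genes the numbers were 19, 21, 18 and 18, and for antisense genes, which were the more numerous in every library, 65, 62, 58 and 61. EEF1A1P5, a copy of an elongation factor gene, was at 1446 FPKM with the precursor and 1376 in its control and was listed at 0 in both libraries of the antimir table. RPL13AP5 was at 282 and 364 FPKM and TMSL3 at 184 and 169, and both were listed at 0 in the antimir table. RPLP0P6 was at 428, 387, 18.7 and 25.4 FPKM with the precursor, its control, the antimir library and its control. Of 55 processed pseudogene entries with at least 10 FPKM in a library of the precursor table, 15 were listed at 0 in both libraries of the antimir table and 33 were under 1 FPKM in both. Fragments of such copies cannot be told apart from those of their parent genes, the tables were normalised separately, and the cause of the gap was not tested.

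Not all abundant entries behaved so. ZDHHC20-AS1, named as an antisense gene, was at 61.4, 62.3, 61.6 and 60.4 FPKM in the 4 libraries in the same order, and C19orf33 at 27.9, 28.2, 24.0 and 23.4. GPX4, a selenium enzyme that protects membranes from oxidation, had transcripts that summed to 0 once failed entries were left out. Its whole-locus entry was at 38.4, 34.1, 30.7 and 35.9 FPKM. The antisense entry of EHMT2-AS1 was at 18.7, 18.6, 17.2 and 17.7 FPKM while its transcripts were at 3.15, 0.834, 1.11 and 1.14.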
